A study of Mus musculus with 16 samples.

Results

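The genes described here encode integrins and the proteins that tie them to the actin cytoskeleton in focal adhesions. The list held 48 genes, of which 25 encode integrin subunits and 23 encode intracellular adhesion proteins. They were listed by name, and all 48 were found among the 24722 genes of the glomerular table and the 34264 genes of the cortex table.

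RNA sequencing covered isolated glomeruli, the capillary tufts that filter blood, and renal cortex of wild-type (WT) mice aged 24 weeks. Diabetic glomeruli (G-STZ) and diabetic cortex (K-STZ) came from mice given a high-fat diet plus streptozotocin (HFD/STZ), which kills insulin-producing cells, and control glomeruli (G-Con) and control cortex (K-Con) from mice labelled control, with no diet named. Each of the 4 groups had 4 libraries, all of batch 1, and the effects of diet, streptozotocin and diabetes cannot be told apart. Whether each library stands for its own animal is not in the labels, so the p-values rest on the spread between libraries, which could be technical.

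An integrin is a pair of one alpha and one beta subunit that spans the membrane. The pair sets the ligand: laminins for alpha3beta1, alpha6beta1 and alpha6beta4, collagens for alpha1, alpha2, alpha10 and alpha11 with beta1, and proteins with an arginine-glycine-aspartate (RGD) motif, such as fibronectin and vitronectin, for alpha5beta1, alpha8beta1 and the alphav pairs. Talins and kindlins bind the beta tail and switch integrins on, the complex of ILK, PINCH (Lims1, Lims2) and parvins joins them to actin, and vinculin, filamin, alpha-actinin and tensins strengthen that link. In the glomerulus alpha3beta1 is the main anchor of podocytes to the basement membrane, and its loss or that of ILK in mouse podocytes is known to cause proteinuria.

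Promoter windows of 6 members show the sequence at genes that moved in glomeruli, chosen with their motifs known: Vcl, Fermt2, Itgb1 and Itga11 were lower in diabetic glomeruli, and Itgb6 and Fermt1 had the highest fold changes. The windows, from RefSeq on GRCm38.p6, run from 250 bases before to 50 bases after a transcript start. They are Vcl at chr14:20929148-20929447 (plus strand), Fermt2 at chr14:45530016-45530315 (minus), Itgb1 at chr8:128685404-128685703 (plus), Itga11 at chr9:62677605-62677904 (plus), Itgb6 at chr2:60673644-60673943 (minus, 1 of 2 windows of the gene) and Fermt1 at chr2:132945987-132946286 (minus). Capitals mark a CArG box, the binding site of serum response factor, or CATTCC, the core site of TEAD factors, read on either strand.
Vcl: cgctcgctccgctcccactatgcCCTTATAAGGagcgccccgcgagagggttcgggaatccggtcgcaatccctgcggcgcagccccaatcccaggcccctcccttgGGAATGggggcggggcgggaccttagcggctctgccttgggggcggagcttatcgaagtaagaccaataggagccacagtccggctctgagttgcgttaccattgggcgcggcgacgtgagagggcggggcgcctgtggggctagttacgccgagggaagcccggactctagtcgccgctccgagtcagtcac
Fermt2: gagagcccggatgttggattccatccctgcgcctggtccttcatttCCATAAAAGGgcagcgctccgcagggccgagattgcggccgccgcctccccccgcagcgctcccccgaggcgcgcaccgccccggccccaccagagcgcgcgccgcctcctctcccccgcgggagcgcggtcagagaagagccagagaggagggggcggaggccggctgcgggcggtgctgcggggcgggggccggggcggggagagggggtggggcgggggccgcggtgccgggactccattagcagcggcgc
Itgb1: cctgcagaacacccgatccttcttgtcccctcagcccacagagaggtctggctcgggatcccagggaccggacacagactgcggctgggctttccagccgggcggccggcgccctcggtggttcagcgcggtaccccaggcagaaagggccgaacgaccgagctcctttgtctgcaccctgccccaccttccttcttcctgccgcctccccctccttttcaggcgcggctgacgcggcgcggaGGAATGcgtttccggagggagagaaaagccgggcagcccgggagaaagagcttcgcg
Itga11: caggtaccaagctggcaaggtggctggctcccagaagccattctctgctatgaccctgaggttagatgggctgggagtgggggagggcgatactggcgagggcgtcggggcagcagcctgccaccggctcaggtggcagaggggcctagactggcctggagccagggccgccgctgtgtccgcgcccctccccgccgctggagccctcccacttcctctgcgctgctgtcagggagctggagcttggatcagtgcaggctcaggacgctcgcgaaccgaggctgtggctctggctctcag
Itgb6: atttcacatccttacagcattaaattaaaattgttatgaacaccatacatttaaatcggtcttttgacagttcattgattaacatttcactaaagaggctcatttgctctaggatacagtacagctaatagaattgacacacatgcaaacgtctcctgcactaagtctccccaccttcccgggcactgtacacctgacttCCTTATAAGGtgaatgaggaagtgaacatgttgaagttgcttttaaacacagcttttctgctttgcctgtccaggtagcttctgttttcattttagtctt
Fermt1: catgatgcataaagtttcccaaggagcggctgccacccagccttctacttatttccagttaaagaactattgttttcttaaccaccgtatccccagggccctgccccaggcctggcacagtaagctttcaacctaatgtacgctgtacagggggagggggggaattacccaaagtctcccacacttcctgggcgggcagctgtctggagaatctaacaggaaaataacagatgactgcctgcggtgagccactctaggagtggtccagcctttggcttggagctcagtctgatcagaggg

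The Vcl window held a CArG box at position -227 from the start and CATTCC at -143, the Fermt2 window a CArG box at -204, the Itgb1 window CATTCC at -7 and the Itgb6 window a CArG box at -50. Marked stretches did not overlap, and the Itga11 and Fermt1 windows held none of these motifs. The Itgb6 window shown lies inside the annotated gene. The other Itgb6 window, at chr2:60722554-60722853, spans the annotated start of the gene and held none of these motifs either. The 36 members with a window had 42 windows, of which 3 (7.14%) held a CArG box, against 1.64% of all 32544 windows, and 4 (9.52%) held CATTCC, against 14.6% of all windows. The AP-1 site TGANTCA stood in 4 of the 42 windows (Itga3, Itga9, Itgax and Zyx), against 7.79% of all windows. By call in glomeruli, a CArG box stood at 2 of 15 lower and 1 of 7 higher members. CATTCC stood at 3 of 15 lower and 0 of 7 higher members, and the AP-1 site at 2 of 15 lower and 2 of 7 higher members. A match is a description of letters and not a measured site.

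Total counts were 36339294 to 40696477 in G-STZ, 40001932 to 41876031 in G-Con, 60628981 to 72352656 in K-STZ and 57473100 to 69947387 in K-Con. Libraries G-STZ 1 and 4 had a chi-square per gene of 6.69, against 66.2 to 97.9 for the other pairs of the group, and G-Con 3 and 4 had 2.76, against 45.7 to 84.4, so each pair was summed and counted as 1 sample (1+4 and 3+4), which left 3 against 3. Library K-Con 4 stood apart, with a chi-square per gene of 77.7 to 96.2 against each other K-Con library and 18.4 to 28.4 among those. A list of 12 podocyte markers summed to 3430 to 5412 CPM in G-STZ and 6359 to 7462 CPM in G-Con, and to 352 to 403 CPM in K-STZ and 389.6 to 425 CPM in K-Con. The smooth muscle gene Acta2 was at 8936 to 10380 CPM in G-Con. Values below are CPM, counts scaled by library size with TMM factors, listed within a group by library number, and fold changes are log2 of diabetic over control ± SE from edgeR's quasi-likelihood test, called below a Benjamini-Hochberg adjusted p of 0.05.

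In diabetic glomeruli RNA of vinculin, kindlin-2, parvin-alpha and alpha-actinin-1 was lower, and that of Itgb4, Itgb6 and Fermt1, which were close to 0 in the controls, was higher. Of 47 members tested, 10 were higher, 17 were lower and 20 were not called, against 37.5% of all 15238 genes called (19.4% higher and 18.2% lower). Of 24 integrin subunits tested, 5 rose, including the partners Itga6 and Itgb4 and the subunit Itgb6, and 6 fell. Of 23 intracellular proteins, 5 rose and 11 fell. The median log2 fold change was -0.15 over members and 0.01 over all genes. Of all calls 51.6% were higher; scaled to library totals in place of TMM, the median was 0.04 over members and 0.20 over all genes, 72.5% of all calls were higher, and 12 members were called higher and 13 lower. Without G-STZ 2 the members called higher were 6. The groups did not overlap in CPM for 32 members, against 54.2% of all genes, and all 27 called members were among them. Itgae was not tested, with 1 to 6 counts in each G-STZ library and 1 count in each G-Con library.

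**Figure D1:**
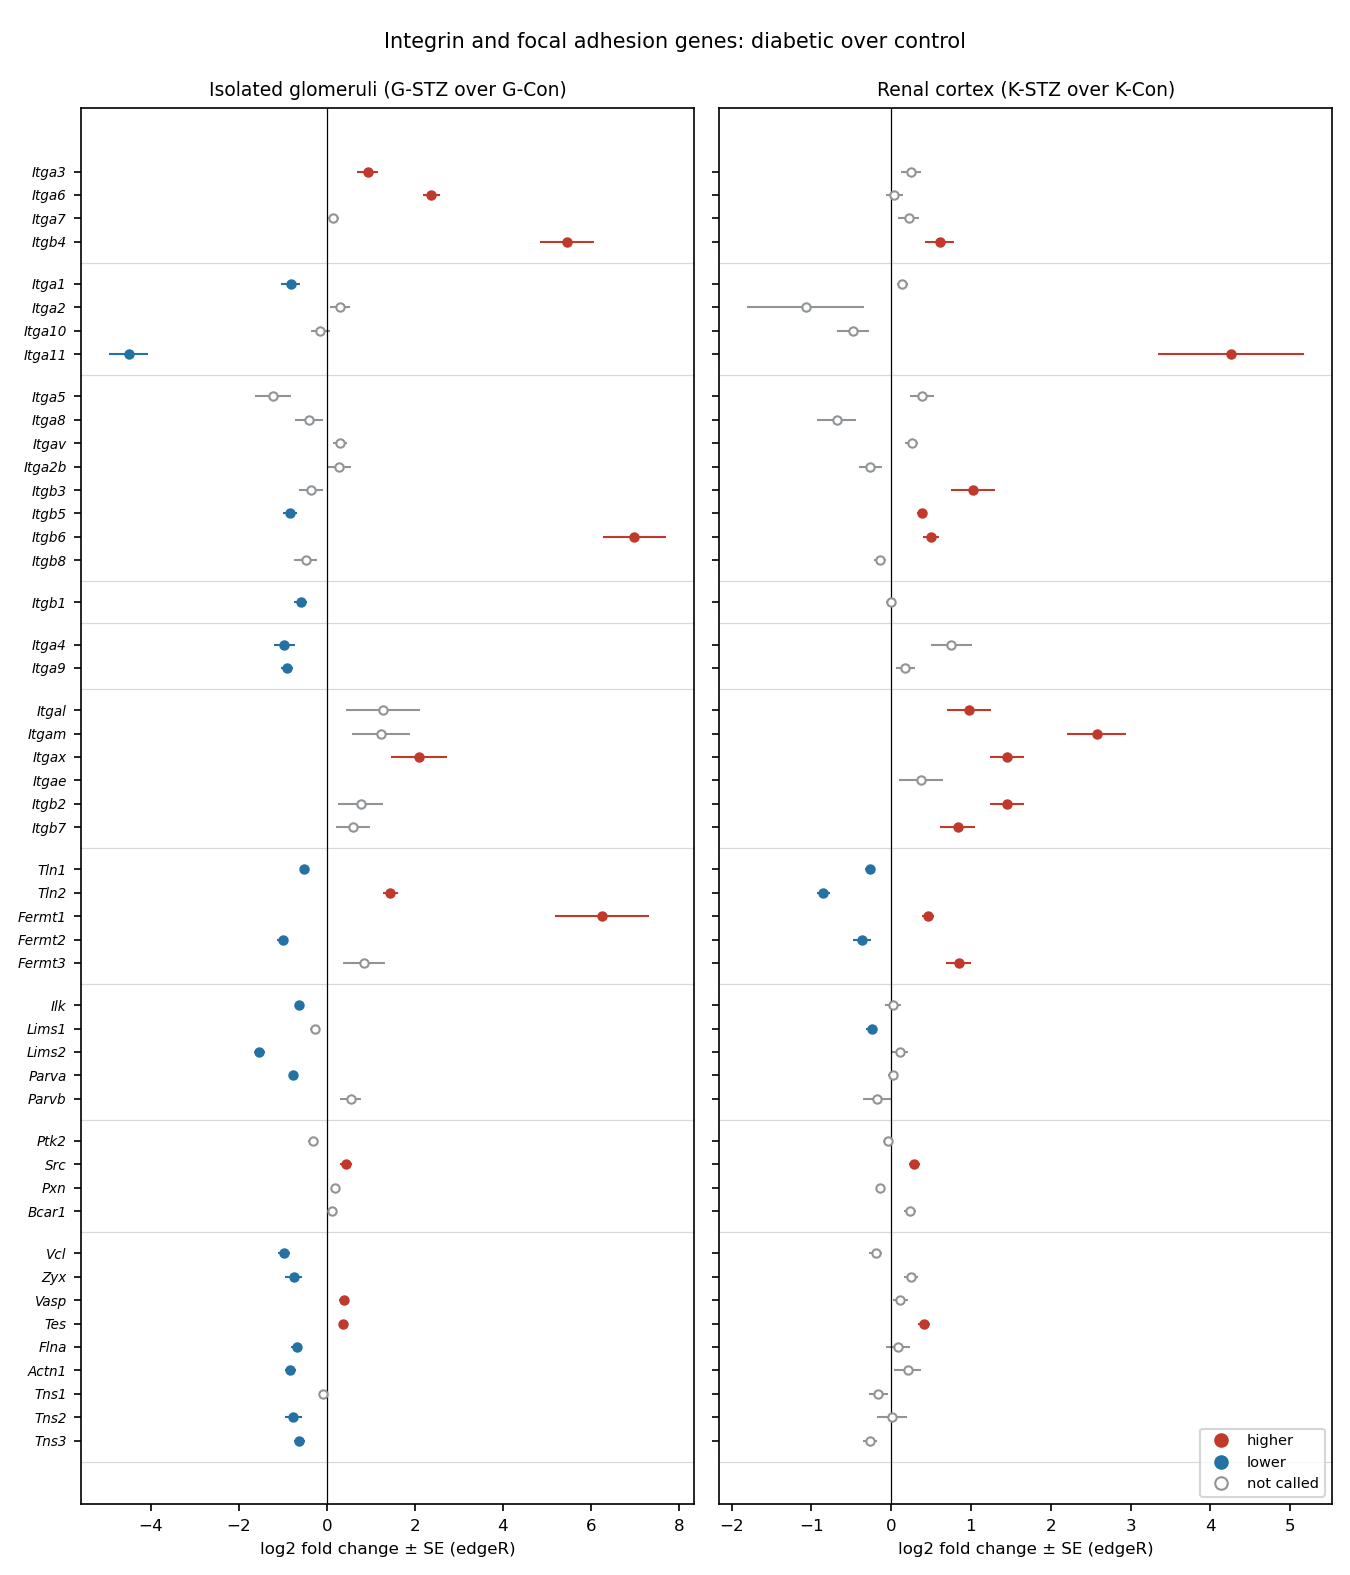
Log2 fold change ± SE (horizontal axis) of each member, diabetic over control, in glomeruli (left, 3 samples a group) and cortex (right, 4 libraries a group), with members grouped by role; filled red points were called higher, filled blue points lower and open grey points were not called. In glomeruli Itgb6, Fermt1 and Itgb4 lie far to the right and Itga11 far to the left; in cortex, on a narrower axis, Itga11 and Itgam lie farthest to the right, and Tln2 is the called member farthest to the left.

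Among laminin-binding integrins, 3 of 4 members rose in diabetic glomeruli. Itga3, the alpha subunit of the podocyte anchor, had 1203, 1365 and 809 CPM in G-STZ, against 703, 454 and 622 CPM in G-Con, a log2 fold change of 0.93 ± 0.24 (edgeR adjusted p = 0.0246). Itga6, which pairs with beta1 or beta4, had 142, 125 and 92.9 CPM in G-STZ, against 21.2, 26.9 and 21.2 CPM in G-Con, a log2 fold change of 2.38 ± 0.19 (edgeR adjusted p = 0.000558). Itgb4, the beta subunit of hemidesmosomes in epithelia, had 162, 191 and 145 CPM in G-STZ, against 1.67, 7.70 and 2.11 CPM in G-Con, a log2 fold change of 5.47 ± 0.62 (edgeR adjusted p = 0.00142). For these 3 genes every diabetic sample lay above every control, and Itgb4 was close to absent from the controls, with G-Con 2 the highest of them. Itga7, a laminin receptor of muscle, was at 32.8 ± 4.37 CPM in G-STZ and 29.5 ± 3.53 CPM in G-Con (SD, n = 3 each) and was not called. The call of Itga3 was lost without G-STZ 1+4, G-STZ 2, G-Con 2 or G-Con 3+4, with adjusted p up to 0.07 by edgeR.

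Itgb6 and kindlin-1, both typical of epithelia, rose with Itgb4. Itgb6, which pairs with alphav and activates latent TGF-beta, had 65.3, 63.8 and 26.4 CPM in G-STZ, against 0.269, 0.952 and 0.140 CPM in G-Con, a log2 fold change of 6.99 ± 0.72 (edgeR adjusted p = 0.00111). Fermt1, which encodes kindlin-1, the kindlin of epithelial cells, had 273, 330.3 and 161 CPM in G-STZ, against 0.591, 8.81 and 0.954 CPM in G-Con, a log2 fold change of 6.26 ± 1.06 (edgeR adjusted p = 0.0054). The groups were far apart for both, with G-STZ 3 the lowest diabetic sample and G-Con 2 the highest control. Tln2, which encodes talin-2, the talin of lower FPKM here, rose by a smaller factor and had 83.4, 77.9 and 81.3 CPM in G-STZ, against 25.0, 38.1 and 26.0 CPM in G-Con, a log2 fold change of 1.45 ± 0.17 (edgeR adjusted p = 0.00163).

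Many markers of other epithelial cells were also higher in diabetic glomeruli. Of the proximal tubule markers, 9 of 12 were higher in diabetic glomeruli, with a summed level of 109 to 1185 CPM in G-STZ and 79.8 to 103 CPM in G-Con. For distal nephron and collecting duct, 10 of 12 were higher, with sums of 422 to 2226 CPM in G-STZ and 75.6 to 94.2 CPM in G-Con. The diabetic samples differed in these markers. In G-STZ 1+4 and in G-STZ 3 all 12 of each list stood above every control. In G-STZ 2 this held for 3 of the 12 proximal and 8 of the 12 distal markers. G-STZ 2 had a distal sum of 422 CPM, of which Cdh16, a kidney cadherin, held 328.5 CPM, against 12.3 to 34.8 CPM in G-Con. Sample G-STZ 2 had 191 CPM of Itgb4, 63.8 CPM of Itgb6 and 330.3 CPM of Fermt1. With it as the lone diabetic sample the log2 fold changes were 5.69, 7.30 and 6.65. That fit assumes that the lone sample varies like the other group, so it gives no measure of spread among diabetic samples. With 1 sample that itself held tubular markers above every control, the fit cannot test the part of tubular cells. Of the parietal epithelium list, 3 of 6 markers were higher (Krt8, Krt18 and Cldn1), with sums of 1380 to 2504 CPM in G-STZ and 312 to 469 CPM in G-Con. Krt8 was at 1056, 1264 and 601 CPM in G-STZ, against 2.26, 19.1 and 2.48 CPM in G-Con. The part of other epithelial cells in the rise of these members was not tested. In such bulk samples more or fewer cells of a type and more or less RNA per cell cannot be told apart.

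**Figure D2:**
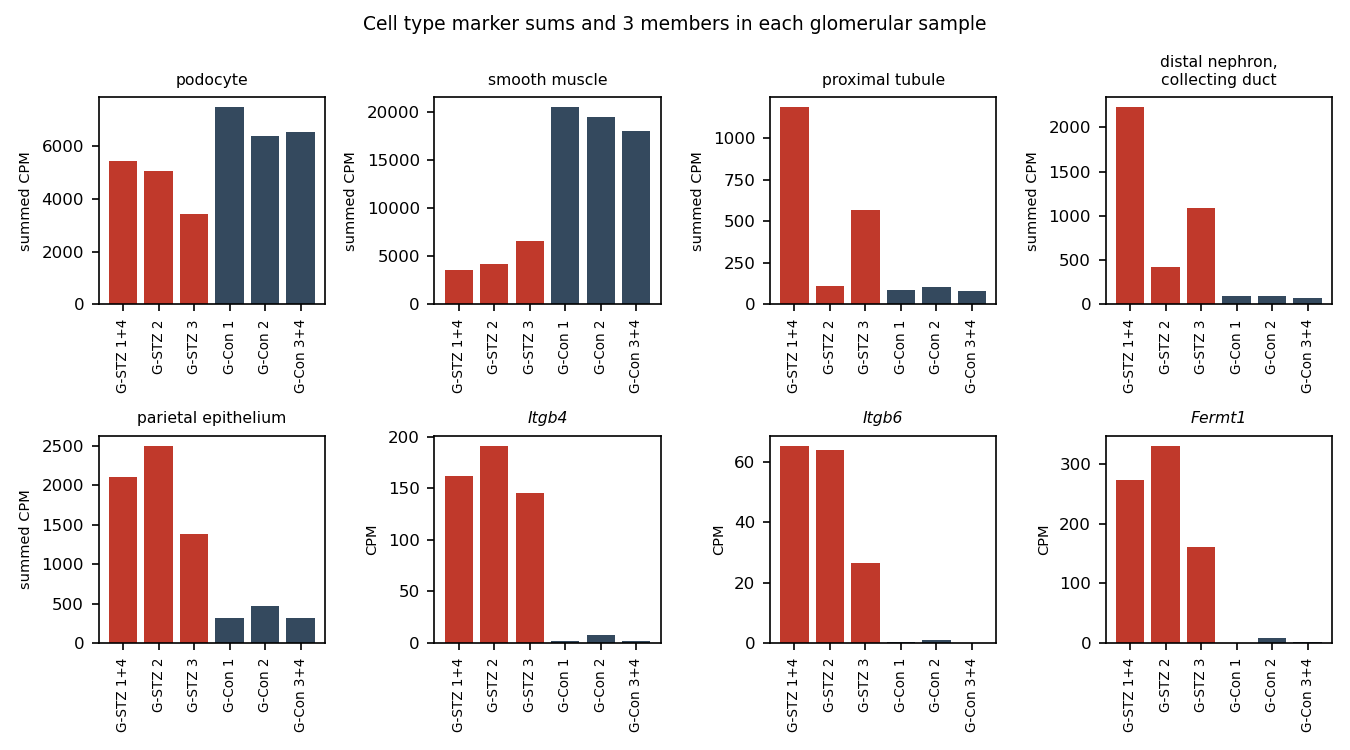
Summed CPM of 5 cell type marker lists and CPM of Itgb4, Itgb6 and Fermt1 (vertical axes) in each glomerular sample, G-STZ in red and G-Con in dark blue. G-STZ 2 has a proximal tubule sum of 109 CPM, against 79.8 to 103 CPM in G-Con, a distal sum of 422 CPM, against 75.6 to 94.2 CPM in G-Con, and the highest parietal sum, Itgb4 and Fermt1 values, while the smooth muscle sums are 3609 to 6595 CPM in G-STZ and 18040 to 20530 CPM in G-Con.

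Of the 4 collagen-binding integrins, 2 fell and none rose. Itga11, a receptor for fibrillar collagens on fibroblasts, had 8.47, 8.93 and 9.51 CPM in G-STZ, against 273, 88.5 and 248 CPM in G-Con, a log2 fold change of -4.50 ± 0.44 (edgeR adjusted p = 0.000972). The 3 diabetic samples were nearly alike and all far below the controls, among which G-Con 2 was the lowest. Itga1, a collagen receptor of mesangial and endothelial cells, had 59.6, 57.5 and 41.0 CPM in G-STZ, against 70.2, 95.7 and 113 CPM in G-Con, a log2 fold change of -0.82 ± 0.21 (edgeR adjusted p = 0.0244). That call was lost without any 1 sample other than G-Con 1, with adjusted p up to 0.0729 by edgeR. Itga2 was at 104 ± 11.4 CPM in G-STZ and 84.4 ± 28.5 CPM in G-Con (SD, n = 3 each), and Itga10 at 2.48 ± 0.252 CPM in G-STZ and 2.74 ± 0.339 CPM in G-Con (SD, n = 3 each); neither was called.

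The shared beta1 subunit, its partners Itga4 and Itga9 and the alphav partner Itgb5 were lower. Itgb1, the beta chain of most of these receptors, had 2937, 3419 and 3803 CPM in G-STZ, against 4494, 5219 and 5601 CPM in G-Con, a log2 fold change of -0.59 ± 0.15 (edgeR adjusted p = 0.0231). Its groups did not overlap, but the call was lost without G-STZ 1+4, G-STZ 2, G-Con 2 or G-Con 3+4, with adjusted p up to 0.0837 by edgeR. Itgb5, which forms the vitronectin receptor alphavbeta5, had 542, 570.1 and 643 CPM in G-STZ, against 1195, 823 and 1100 CPM in G-Con, a log2 fold change of -0.83 ± 0.16 (edgeR adjusted p = 0.00824). Itga4 and Itga9, which bind VCAM-1 and tenascin among other ligands, both fell. Itga4 had 32.4, 26.3 and 20.1 CPM in G-STZ, against 53.4, 36.7 and 63.4 CPM in G-Con, a log2 fold change of -0.96 ± 0.25 (edgeR adjusted p = 0.023). Itga9 had 30.9, 23.8 and 22.4 CPM in G-STZ, against 44.4, 51.9 and 49.1 CPM in G-Con, a log2 fold change of -0.91 ± 0.14 (edgeR adjusted p = 0.00367). The call of Itga4 was lost without G-STZ 2, G-STZ 3, G-Con 1 or G-Con 3+4, with adjusted p up to 0.0705, and that of Itga9 in no such fit by edgeR.

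The RGD-binding subunits Itga5, Itgb3, Itgav, Itga8 and Itgb8 were not called. Itga5, the fibronectin receptor, had 421, 479 and 1006 CPM in G-STZ, against 1158, 2143 and 1145 CPM in G-Con, a log2 fold change of -1.22 ± 0.41 (edgeR adjusted p = 0.0545). Every diabetic sample lay below every control, with G-STZ 3 high among the diabetic samples and G-Con 2 high among the controls; without G-STZ 3 the fold change was -1.70 and was called (edgeR adjusted p = 0.0145). Itgb3, the partner of alphav and of alphaIIb, had 77.6, 84.8 and 158 CPM in G-STZ, against 130.4, 142 and 139.9 CPM in G-Con, a log2 fold change of -0.36 ± 0.27 (edgeR adjusted p = 0.321). Here too G-STZ 3 stood above the other diabetic samples, and without it the fold change was -0.74 and was called (edgeR adjusted p = 0.00413). Itgav had 468, 528 and 509 CPM in G-STZ, against 344, 374 and 505 CPM in G-Con, a log2 fold change of 0.30 ± 0.16 (edgeR adjusted p = 0.18). The alphav groups overlapped in CPM but not in FPKM, which was 72.3 to 81.1 in G-STZ and 45.0 to 68.6 in G-Con. Itga8, the nephronectin receptor of mesangial cells, was at 107 ± 40.5 CPM in G-STZ and 143 ± 35.4 CPM in G-Con (SD, n = 3 each), Itgb8 at 29.8 ± 8.16 CPM in G-STZ and 41.6 ± 12.3 CPM in G-Con (SD, n = 3 each) and Itga2b at 1.89 ± 0.462 CPM in G-STZ and 1.56 ± 0.0910 CPM in G-Con (SD, n = 3 each), and none was called.

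Of the leukocyte integrins Itgam had the highest mean in glomeruli, at 19.1 ± 14.1 CPM in G-STZ and 8.13 ± 6.02 CPM in G-Con (SD, n = 3 each). Itgax, which encodes the alpha chain CD11c, averaged 7.15 ± 4.11 CPM in G-STZ and 1.68 ± 1.27 CPM in G-Con (SD, n = 3 each), a log2 fold change of 2.10 ± 0.64 (edgeR adjusted p = 0.0406). That call was lost without G-STZ 1+4, G-STZ 3, G-Con 1 or G-Con 3+4, with adjusted p up to 0.126 by edgeR. Itgal, Itgam, Itgb2 and Itgb7 had log2 fold changes of 0.59 to 1.27 and were not called. G-Con 2 stood above the other controls for Itgal, Itgam, Itgax and Itgb2, and without it Itgal (2.85, adjusted p = 0.00897) and Itgb2 (1.51, adjusted p = 0.0255) were called by edgeR. The myeloid markers summed to 225 to 678 CPM in G-STZ and 304 to 738 CPM in G-Con, with 3 of 12 markers higher and 1 lower.

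**Figure D3:**
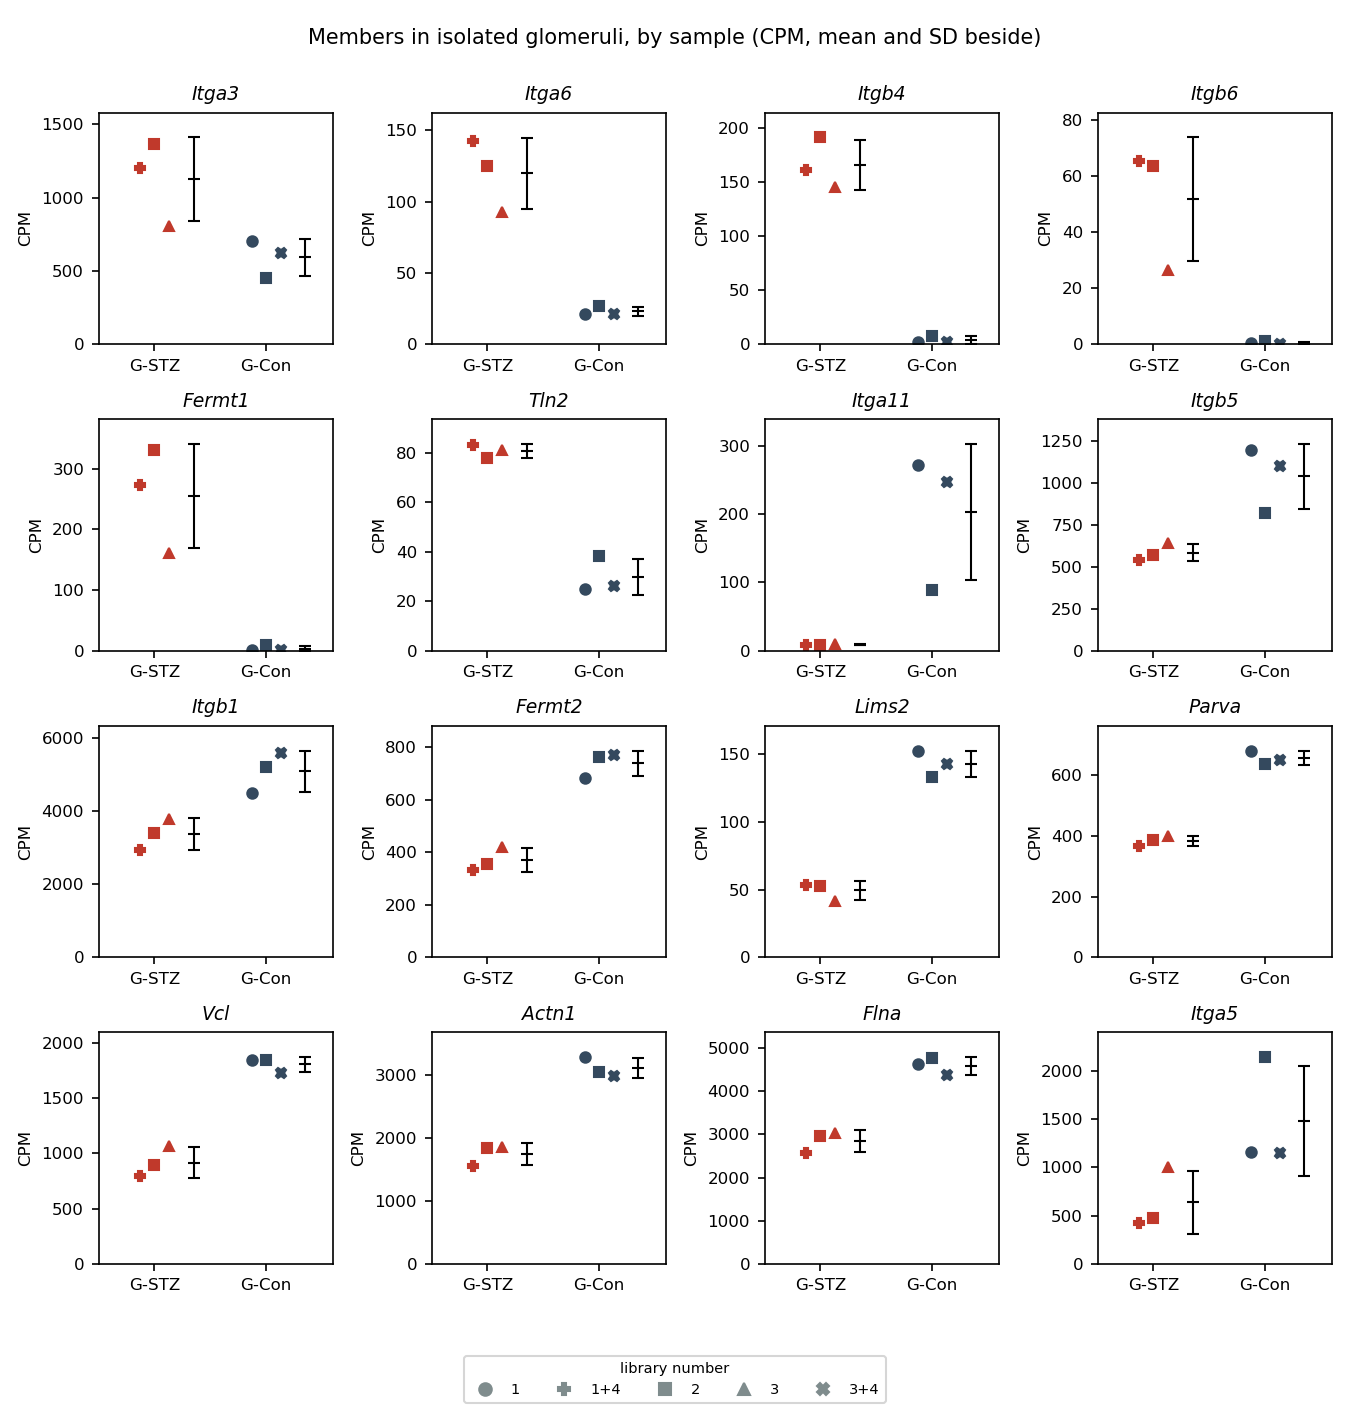
CPM (vertical axes, linear from 0) of 16 members in each glomerular sample, G-STZ left and G-Con right in each panel, with the mean and SD as a bar beside the points and the marker shape giving the library number. Itgb4, Itgb6 and Fermt1 lie near 0 in G-Con, Itga11 lies near 0 in G-STZ relative to G-Con, and G-STZ 3 stands above the other diabetic samples for Itga5.

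Talin-1 and kindlin-2, the main activators in the controls, were lower in diabetic glomeruli. Tln1 had 806, 870 and 962 CPM in G-STZ, against 1288, 1258 and 1200 CPM in G-Con, a log2 fold change of -0.51 ± 0.11 (edgeR adjusted p = 0.0114). Fermt2, which encodes kindlin-2, had 331, 356 and 421 CPM in G-STZ, against 682, 764 and 769.8 CPM in G-Con, a log2 fold change of -1.0 ± 0.12 (edgeR adjusted p = 0.00169). Neither pair of groups overlapped, and every diabetic Fermt2 value lay well under the lowest control. Per length, on the FPKM scale, Fermt1 averaged 51.9 ± 18.3 in G-STZ and 0.620 ± 0.836 in G-Con (SD, n = 3 each), and Fermt2 110.3 ± 11.3 FPKM in G-STZ and 194 ± 16.6 FPKM in G-Con, so kindlin-1 RNA stood below kindlin-2 RNA in both groups. Fermt3, the kindlin of blood cells, was at 8.90 ± 5.20 CPM in G-STZ and 4.97 ± 2.34 CPM in G-Con (SD, n = 3 each) and was not called.

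In the complex of ILK, PINCH and parvin, 3 of 5 members fell and none rose. Ilk, its scaffold, had 374, 428 and 436 CPM in G-STZ, against 653, 658 and 593 CPM in G-Con, a log2 fold change of -0.62 ± 0.10 (edgeR adjusted p = 0.00468). Parva, the alpha-parvin that binds actin, had 368, 386 and 400.1 CPM in G-STZ, against 682, 638 and 652 CPM in G-Con, a log2 fold change of -0.77 ± 0.09 (edgeR adjusted p = 0.00133). Lims2, which encodes PINCH2, had 53.7, 52.9 and 41.5 CPM in G-STZ, against 153, 134 and 143 CPM in G-Con, a log2 fold change of -1.54 ± 0.12 (edgeR adjusted p = 0.000558). These 3 genes showed little spread within groups and no overlap between them. Lims1, which encodes PINCH1, had 210.3, 249 and 244 CPM in G-STZ, against 279, 259.5 and 312 CPM in G-Con, a log2 fold change of -0.27 ± 0.11 (edgeR adjusted p = 0.0911). Parvb was at 22.9 ± 0.908 CPM in G-STZ and 15.8 ± 5.62 CPM in G-Con (SD, n = 3 each) and was not called, and it was called higher without G-Con 2 (0.86, edgeR adjusted p = 0.00373).

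Among the kinases and adaptors 1 of 4 was called. Src, the kinase that phosphorylates focal adhesion proteins, averaged 139 ± 10.9 CPM in G-STZ and 102 ± 18.4 CPM in G-Con (SD, n = 3 each), a log2 fold change of 0.44 ± 0.14 (edgeR adjusted p = 0.0463). Its call was lost without any 1 sample other than G-Con 2, with adjusted p up to 0.136 by edgeR. Pxn, the paxillin scaffold, had 270.1, 299.8 and 283 CPM in G-STZ, against 257, 258 and 236 CPM in G-Con, a log2 fold change of 0.18 ± 0.09 (edgeR adjusted p = 0.14). Bcar1, the p130Cas adaptor, had 311, 347 and 294 CPM in G-STZ, against 296, 305 and 270.1 CPM in G-Con, a log2 fold change of 0.13 ± 0.10 (edgeR adjusted p = 0.351). Ptk2, which encodes focal adhesion kinase, was at 116 ± 12.9 CPM in G-STZ and 145 ± 14.0 CPM in G-Con (SD, n = 3 each) and was not called. Its groups did not overlap in CPM but did in FPKM, which was 14.57 to 17.3 in G-STZ and 15.25 to 19.09 in G-Con.

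Of the actin linkers and tensins, 6 of 9 fell and 2 rose. Vcl, the vinculin that joins talin to actin, had 791, 890 and 1064 CPM in G-STZ, against 1841, 1846 and 1728 CPM in G-Con, a log2 fold change of -0.98 ± 0.14 (edgeR adjusted p = 0.00245). Actn1, which crosslinks actin, had 1548, 1843 and 1859 CPM in G-STZ, against 3288, 3047 and 2988 CPM in G-Con, a log2 fold change of -0.83 ± 0.12 (edgeR adjusted p = 0.00317). Flna, the filamin that binds beta tails and actin, had 2559, 2952 and 3034 CPM in G-STZ, against 4639, 4765 and 4367 CPM in G-Con, a log2 fold change of -0.69 ± 0.12 (edgeR adjusted p = 0.00609). All 3 were among the most abundant members, and their groups lay apart. Zyx, the zyxin of mature adhesions, had 496, 589 and 792 CPM in G-STZ, against 1013, 1202 and 941 CPM in G-Con, a log2 fold change of -0.75 ± 0.19 (edgeR adjusted p = 0.0236). Tns3 had 526, 541 and 418 CPM in G-STZ, against 795, 761 and 740.1 CPM in G-Con, a log2 fold change of -0.63 ± 0.12 (edgeR adjusted p = 0.00861). Tns2, a tensin whose loss in mice is known to injure podocytes, had 153, 178 and 105 CPM in G-STZ, against 248, 263 and 228 CPM in G-Con, a log2 fold change of -0.76 ± 0.19 (edgeR adjusted p = 0.0218). G-STZ 3 was the lowest diabetic sample for both tensins and the highest for Zyx. The call of Zyx was lost without G-STZ 1+4, G-STZ 2, G-Con 1 or G-Con 2 (adjusted p up to 0.082), and that of Tns2 without G-STZ 1+4, G-Con 1 or G-Con 2 (adjusted p up to 0.0634), by edgeR. Tns1 had 772, 759 and 702 CPM in G-STZ, against 776, 847 and 749 CPM in G-Con, a log2 fold change of -0.09 ± 0.10 (edgeR adjusted p = 0.523).

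Tes and Vasp, which bind actin regulators at adhesions, rose slightly. Tes had 197, 231 and 222 CPM in G-STZ, against 175, 169.7 and 156 CPM in G-Con, a log2 fold change of 0.38 ± 0.09 (edgeR adjusted p = 0.0215). Vasp averaged 233 ± 21.7 CPM in G-STZ and 177 ± 13.6 CPM in G-Con (SD, n = 3 each), a log2 fold change of 0.39 ± 0.10 (edgeR adjusted p = 0.0256). The call of Tes was lost without G-STZ 2, G-Con 2 or G-Con 3+4 (adjusted p up to 0.0793), and that of Vasp without G-STZ 2 or any 1 control (adjusted p up to 0.0892), by edgeR. Beside the fall of the actin linkers, 9 of 10 smooth muscle markers fell, with sums of 3609 to 6595 CPM in G-STZ and 18040 to 20530 CPM in G-Con. Of 10 mesangial markers 2 fell, 0 rose and 8 were not called, with sums of 936 to 1626 CPM in G-STZ and 1416 to 1678 CPM in G-Con. Of the podocyte markers 4 of 12 fell, with the sums given above, and of 10 endothelial markers 0 were called by edgeR, 0 had an unadjusted p under 0.05 and 0 were called by DESeq2. Their part in the fall of these members was not tested.

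In cortex the pattern was smaller and mostly upward. Of 48 members tested, 14 were higher, 4 were lower and 30 were not called, against 20.1% of all 19228 genes called (10.8% higher and 9.29% lower). The 10 integrin subunits that rose included 5 of the 6 leukocyte integrins. Of the intracellular proteins 4 rose, and the 4 members that fell were also intracellular (Tln1, Tln2, Fermt2 and Lims1). The median log2 fold change was 0.16 over members and -0.00 over all genes. Of all calls 53.7% were higher, and 63.5% with library totals or 65% with limma on log2(FPKM + 1). The groups did not overlap for 17 members, against 24.9% of all genes. Without K-Con 4 the members called were 18 higher and 5 lower, and members called lower were 1 without K-Con 1 and 2 without K-Con 3 or K-STZ 2, 3 or 4.

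Leukocyte integrins rose together in diabetic cortex. Itgam, the CD11b chain of macrophages and neutrophils, had 2.85, 4.72, 2.07 and 1.59 CPM in K-STZ, against 0.343, 0.574, 0.556 and 0.410 CPM in K-Con, a log2 fold change of 2.57 ± 0.37 (edgeR adjusted p = 0.00162). Itgax had 7.31, 8.87, 8.64 and 6.90 CPM in K-STZ, against 1.85, 2.98, 2.83 and 3.91 CPM in K-Con, a log2 fold change of 1.45 ± 0.21 (edgeR adjusted p = 0.00182). Itgb2, the beta chain they share, had 8.06, 13.1, 13.2 and 8.37 CPM in K-STZ, against 3.29, 3.98, 3.25 and 5.03 CPM in K-Con, a log2 fold change of 1.46 ± 0.22 (edgeR adjusted p = 0.00192). Every diabetic library lay above every control for these 3 genes. Itgal, the LFA-1 chain of lymphocytes, had 3.88, 8.07, 7.61 and 6.07 CPM in K-STZ, against 3.63, 2.44, 2.39 and 4.56 CPM in K-Con, a log2 fold change of 0.98 ± 0.28 (edgeR adjusted p = 0.0329). Itgb7, a beta chain of gut-homing lymphocytes, had 3.36, 4.44, 4.96 and 3.37 CPM in K-STZ, against 1.85, 1.91, 2.25 and 3.02 CPM in K-Con, a log2 fold change of 0.83 ± 0.22 (edgeR adjusted p = 0.0227). For Itgal K-STZ 1 fell within the control range, and for both genes K-Con 4 was the highest control. Fermt3, the kindlin that activates these integrins, had 6.29, 7.05, 8.16 and 5.88 CPM in K-STZ, against 3.91, 3.18, 3.69 and 4.41 CPM in K-Con, a log2 fold change of 0.85 ± 0.16 (edgeR adjusted p = 0.00503). Itgae, an integrin of epithelial lymphocytes, was at 1.46 ± 0.335 CPM in K-STZ and 1.13 ± 0.328 CPM in K-Con (SD, n = 4 each) and was not called.

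Markers of myeloid cells moved with them: 11 of 12 were higher, with sums of 572 to 878 CPM in K-STZ and 235 to 409 CPM in K-Con. Of the lymphocyte markers 5 of 12 were higher, with sums of 10.8 to 16.6 CPM in K-STZ and 3.89 to 6.39 CPM in K-Con. Their part in the rise of these members was not tested. The calls of Itgal and Itgb7 were lost in 6 and 5 of the 8 fits that left out 1 library, with adjusted p up to 0.0952 and 0.0716 by edgeR: without K-Con 1, 2 or 3 or K-STZ 2 or 3 for both, and also without K-STZ 4 for Itgal.

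**Figure D4:**
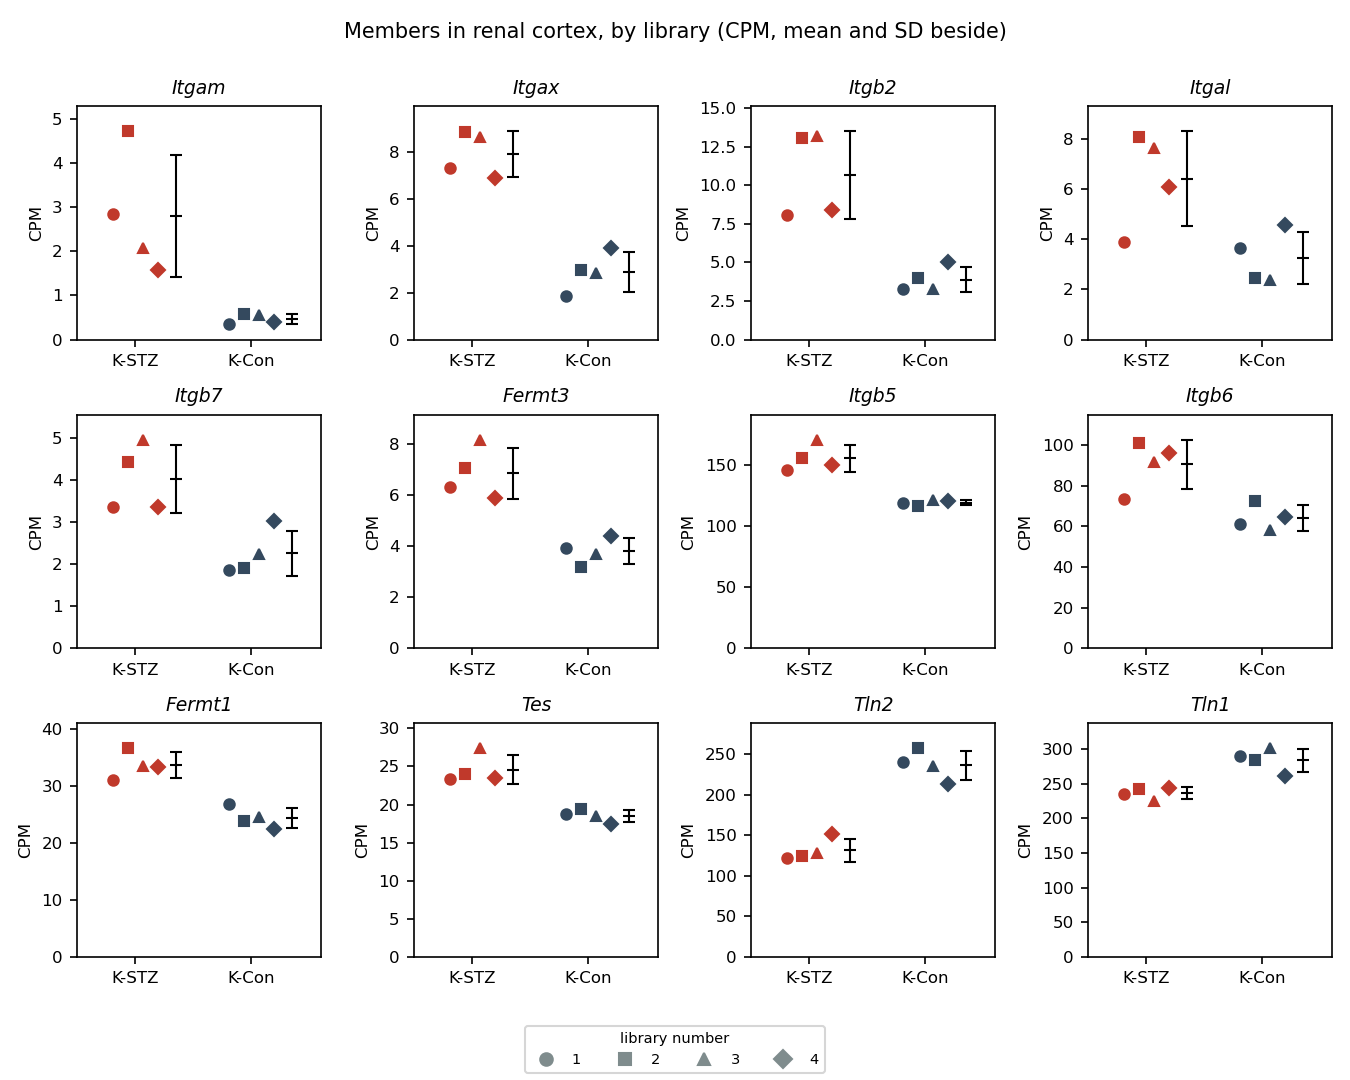
CPM (vertical axes, linear from 0) of 12 members in each cortex library, K-STZ left and K-Con right in each panel, with the mean and SD as a bar beside the points and the marker shape giving the library number. Every K-STZ point lies above every K-Con point for Itgam, Itgax, Itgb2, Itgb7, Fermt3, Itgb5, Itgb6, Fermt1 and Tes, and below for Tln2 and Tln1.

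In cortex 3 of 8 RGD-binding integrins (Itgb3, Itgb5 and Itgb6) and 1 of 4 laminin-binding integrins (Itgb4) rose. Itgb5 had 146, 155, 170.3 and 149.7 CPM in K-STZ, against 119, 116, 121 and 121 CPM in K-Con, a log2 fold change of 0.38 ± 0.06 (edgeR adjusted p = 0.0025). Itgb6 had 73.2, 101, 91.6 and 96.2 CPM in K-STZ, against 61.1, 72.5, 58.1 and 64.4 CPM in K-Con, a log2 fold change of 0.50 ± 0.10 (edgeR adjusted p = 0.00894). For both genes the groups lay apart, though the sizes were far from those of Itgb6 in glomeruli. Itgb3 had 2.24, 3.56, 2.76 and 3.27 CPM in K-STZ, against 0.960, 1.11, 2.15 and 1.57 CPM in K-Con, a log2 fold change of 1.03 ± 0.28 (edgeR adjusted p = 0.0271). Itgb4 had 6.96, 9.87, 9.42 and 8.35 CPM in K-STZ, against 4.35, 4.90, 6.09 and 7.31 CPM in K-Con, a log2 fold change of 0.61 ± 0.18 (edgeR adjusted p = 0.0388). Fermt1 had 31.0, 36.6, 33.5 and 33.3 CPM in K-STZ, against 26.8, 23.8, 24.5 and 22.5 CPM in K-Con, a log2 fold change of 0.46 ± 0.08 (edgeR adjusted p = 0.00294). The Itgb4 groups overlapped, and K-Con 4 was its highest control. The calls of Itgb3 and Itgb4 were lost in 5 and 6 of the 8 fits that left out 1 library, with adjusted p up to 0.0796 and 0.109 by edgeR: without K-Con 1 or 2 or K-STZ 2, 3 or 4 for both, and also without K-Con 3 for Itgb4.

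Itga11 was near 0 in cortex but split the groups. It had 33 to 42 counts in each K-STZ library, against 0, 0, 0 and 7 counts in K-Con, a log2 fold change of 4.26 ± 0.92 (edgeR adjusted p = 0.0102). That value rests on near-0 counts: it was 8.14 without K-Con 4, where every control left was at 0 and the fitted value is no bound, and 0.13 with limma on unfiltered log2(FPKM + 1). Tes had 23.3, 24.0, 27.4 and 23.5 CPM in K-STZ, against 18.8, 19.4, 18.5 and 17.4 CPM in K-Con, a log2 fold change of 0.41 ± 0.08 (edgeR adjusted p = 0.00523). Src had 33.2, 39.6, 33.9 and 37.7 CPM in K-STZ, against 30.2, 30.5, 29.3 and 27.9 CPM in K-Con, a log2 fold change of 0.29 ± 0.07 (edgeR adjusted p = 0.0173). The Src groups did not overlap, but its call was lost without K-STZ 2 or K-STZ 4 (adjusted p up to 0.0564) by edgeR.

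Both talins fell in diabetic cortex. Beside them and the rise of the genes above, 7 of 12 proximal tubule markers were lower, with sums of 21760 to 29050 CPM in K-STZ and 25570 to 36270 CPM in K-Con. Of the distal nephron and collecting duct markers 7 of 12 were lower, with sums of 5949 to 7500 CPM in K-STZ and 6715 to 10100 CPM in K-Con. K-Con 4 had the lowest proximal sum of the controls, 25570 CPM, and the highest distal sum, 10100 CPM. In cortex 3 of 6 parietal epithelium markers were higher, with sums of 252 to 282 CPM in K-STZ and 200.6 to 225 CPM in K-Con. Their part in these results was not tested. Tln2 had 122, 124, 128 and 152 CPM in K-STZ, against 241, 257, 235 and 214 CPM in K-Con, a log2 fold change of -0.85 ± 0.09 (edgeR adjusted p = 0.000394), and every diabetic library lay far below every control. Tln1 had 235, 242, 224 and 244 CPM in K-STZ, against 289, 284, 301 and 261 CPM in K-Con, a log2 fold change of -0.26 ± 0.06 (edgeR adjusted p = 0.0163). Fermt2 had 78.2, 68.5, 71.3 and 68.8 CPM in K-STZ, against 88.9, 79.5, 85.0 and 117 CPM in K-Con, a log2 fold change of -0.37 ± 0.11 (edgeR adjusted p = 0.0422). Lims1 had 45.2, 41.2, 47.2 and 41.6 CPM in K-STZ, against 51.3, 49.0, 50.5 and 56.8 CPM in K-Con, a log2 fold change of -0.25 ± 0.07 (edgeR adjusted p = 0.0299). For Fermt2 and Lims1 K-Con 4 was the highest control. The calls were lost without K-Con 1 or K-STZ 3 for Tln1 (adjusted p up to 0.0538), without K-Con 1, K-Con 3 or K-STZ 2, 3 or 4 for Fermt2 (up to 0.109) and without K-Con 1, K-Con 3 or K-STZ 2 or 4 for Lims1 (up to 0.0892), by edgeR. The other 30 members had log2 fold changes of -1.07 to 0.76; without K-Con 4, Itgav (0.33, adjusted p = 0.00973), Itga4 (1.03, 0.00565), Itga5 (0.50, 0.0264) and Zyx (0.29, 0.0287) were called higher and Pxn (-0.16, 0.0313) lower by edgeR.

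In both tissues 6 members were higher (Itgb4, Itgb6, Fermt1, Itgax, Src and Tes) and 2 were lower (Tln1 and Fermt2), while Tln2 was higher in glomeruli and lower in cortex, and Itgb5 and Itga11 were lower in glomeruli and higher in cortex. The difference between the tissues in the log2 fold change of diabetic over control, glomeruli minus cortex, was tested in 1 model of the 4 groups. It was called for 22 of 48 members (6 higher and 16 lower), against 35% of all 16298 genes (18.8% higher and 16.3% lower). Of all such calls 53.6% were higher, and 69% with library totals. The fold change was larger in glomeruli for Itgb6 (6.53 ± 0.59, adjusted p = 7.24e-06), Fermt1 (5.82 ± 0.88, adjusted p = 0.000355), Itgb4 (4.87 ± 0.56, adjusted p = 4.81e-05), Itga6 (2.34 ± 0.21, adjusted p = 4.2e-06), Tln2 (2.30 ± 0.18, adjusted p = 1.33e-06) and Pxn (0.33 ± 0.08, adjusted p = 0.00668) (edgeR). It was smaller or more negative for Itga11 (-8.72 ± 0.82, adjusted p = 9.11e-06, and -12.66 without K-Con 4, which left its cortex controls at 0), Lims2 (-1.64 ± 0.17, adjusted p = 1.39e-05), Itgb5 (-1.21 ± 0.17, adjusted p = 0.00014) and Parva (-0.80 ± 0.10, adjusted p = 5.84e-05) (edgeR), and for Itga1, Itga4, Itga5, Itga9, Itgb1, Itgb3, Fermt2, Ilk, Vcl, Zyx, Flna and Actn1. Of the 6 leukocyte integrins 0 were called for the difference by edgeR, with adjusted p of 0.209 or more, and 0 by DESeq2 or at an unadjusted p under 0.05, which does not show that the effects were alike.

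Levels between genes were compared per length, on the FPKM scale. Itgb1 led the members in glomeruli, at 860 ± 93.6 FPKM in G-STZ and 1142 ± 147 FPKM in G-Con, before Actn1, Flna and Ilk in both groups (SD, n = 3 each). Itga3 came next in G-STZ at 227 ± 61.2 FPKM and stood at 104 ± 21.1 FPKM in G-Con. In cortex Tns1, at 58.6 ± 6.68 FPKM in K-STZ and 64.2 ± 9.70 FPKM in K-Con, and Itgb1, at 56.0 ± 4.24 FPKM in K-STZ and 54.5 ± 4.55 FPKM in K-Con, led, and within each cortex group their ranges overlapped (SD, n = 4 each). The next in both cortex groups was Itgb5, with 41.0 ± 4.22 FPKM in K-STZ and 30.6 ± 1.80 FPKM in K-Con.

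**Figure D5:**
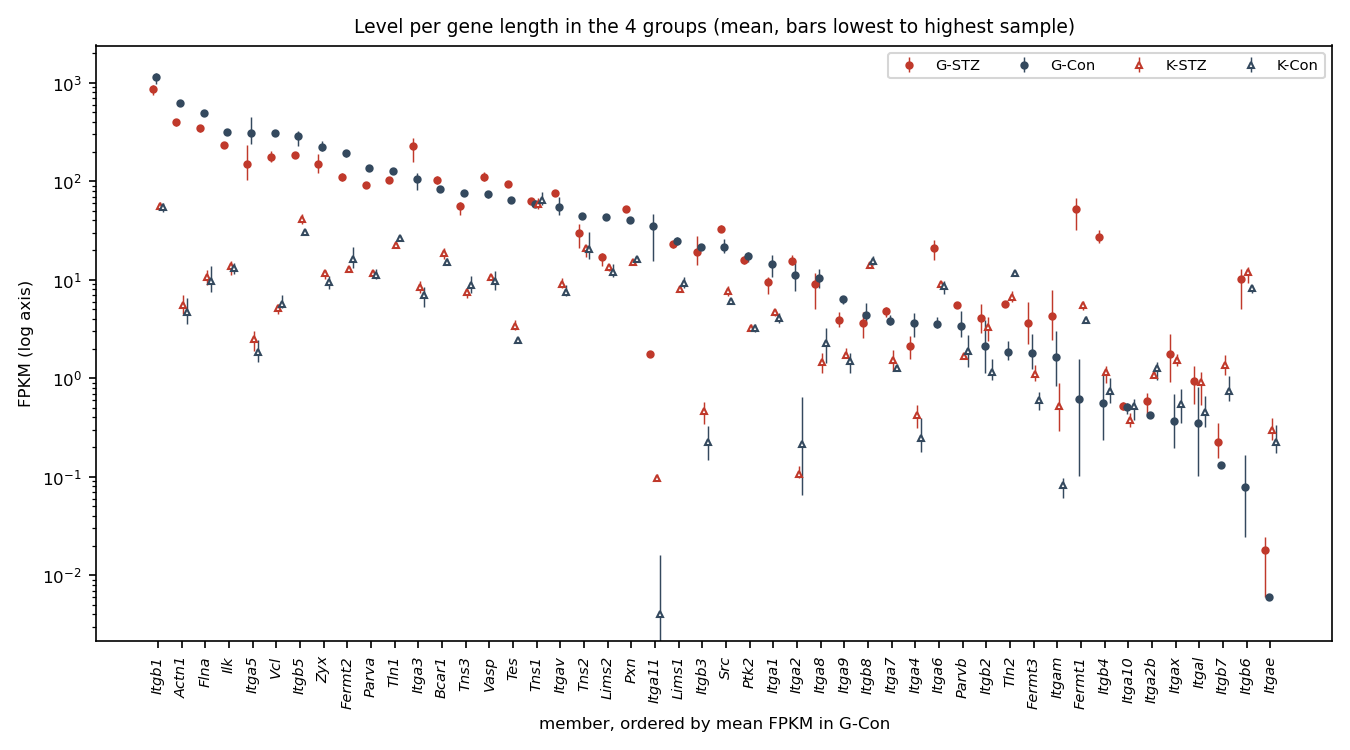
FPKM (vertical log axis) of the 48 members, ordered from left to right by the mean in G-Con; points are group means, filled circles for glomeruli and open triangles for cortex, red for diabetic and dark blue for control, and bars run from the lowest to the highest sample (a bar cut at the axis reaches 0). Itgb1, Actn1 and Flna lead in G-Con, most glomerular points lie above the cortex points, and Fermt1, Itgb4 and Itgb6 stand apart between G-STZ and G-Con.

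Control glomeruli had more RNA than control cortex of 32 members and less of 10, with 6 not called, against 78.5% of all 16298 genes called (38.7% higher and 39.7% lower); the median log2 fold change was 1.63 over members and -0.03 over all genes. The tables name genes in different ways. Their counts look raw for glomeruli and estimated for cortex. Each tissue has its own table, so tissue and table cannot be told apart in this comparison. In it the 12 podocyte markers had a median log2 fold change of 3.23, and the 10 smooth muscle markers had 5.08. The highest fold changes were those of Itga11 (12.4 ± 0.60, adjusted p = 1e-09) and Itga5 (6.89 ± 0.36, adjusted p = 1.35e-09) (edgeR). Itga11 had 0 to 7 counts in the K-Con libraries. Actn1 (6.48 ± 0.20, adjusted p = 1.63e-11), Flna (5.22 ± 0.17, adjusted p = 2.7e-11), Vcl (4.84 ± 0.12, adjusted p = 7.77e-12) and Itgb1 (4.09 ± 0.11, adjusted p = 9.3e-12) were also higher in control glomeruli (edgeR). Itgb6 (-7.63 ± 0.52, adjusted p = 2.48e-08), Tln2 (-3.30 ± 0.14, adjusted p = 1.85e-10), Fermt1 (-3.20 ± 0.67, adjusted p = 0.000699) and Itga6 (-2.22 ± 0.16, adjusted p = 2e-08) were lower (edgeR). Of the leukocyte integrins Itgam (3.78 ± 0.59, adjusted p = 5.11e-05) was higher, 3 were lower and 2 were not called (edgeR).

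Of 170 other adhesion genes, 162 were tested in glomeruli, of which 20 were higher and 65 lower, against 19.4% and 18.2% of all genes, with a median log2 fold change of -0.24; those higher were 12 without G-Con 3+4. Among integrin ligands 6 of 38 rose and 16 fell: Lama3 (4.61 ± 0.38), a chain of a laminin that alpha6beta4 binds, rose, as did Cdh1 (6.71 ± 0.59), which encodes E-cadherin, a ligand of alphaE integrin, while Col4a2 (-1.75 ± 0.17), a basement membrane collagen chain, fell. Among scaffolds and LIM proteins 4 of 30 rose, with Fblim1 (0.73 ± 0.10), and 16 fell, with Kank2 (-1.20 ± 0.14), Tgfb1i1 (-1.47 ± 0.18) and Palld (-1.53 ± 0.20). Of the actin and actomyosin proteins 3 of 35 rose and 14 fell, including Mylk (-1.50 ± 0.17), Myl9 (-1.78 ± 0.21), Synpo2 (-4.04 ± 0.50) and Dlc1 (-1.39 ± 0.18). In the group of kinases, adaptors and GTPase regulators 3 of 36 rose and 7 fell, with Ptk2b (2.09 ± 0.14), a kinase close to focal adhesion kinase, and Git1 (0.36 ± 0.09) higher, and Ptpra (-0.49 ± 0.08) and Crkl (-0.37 ± 0.07) lower. Among integrin partners 4 of 23 rose, with Cd9 (2.00 ± 0.22) and Plau (2.50 ± 0.28), and 12 fell, with Tspan2 (-2.23 ± 0.20) and Cd151 (-0.71 ± 0.10), a tetraspanin partner of alpha3beta1. Bracketed values are log2 fold changes ± SE from edgeR, with adjusted p of 0.0165 or less for each named gene.

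In cortex 166 of these genes were tested, of which 30 were higher and 15 lower, against 10.8% and 9.29% of all genes, with a median log2 fold change of 0.04; those higher were 19 without K-STZ 3, and those lower 9 without K-STZ 2, 3 or 4. Integrin ligands rose for 9 of 40 and fell for 2, led by Fgg (2.40 ± 0.18) and Fga (1.29 ± 0.17), chains of fibrinogen, a ligand of alphaIIbbeta3 and of CD11b, by Icam1 (1.62 ± 0.15), the ligand of CD11a and CD11b, and by Lama5 (0.62 ± 0.08). Among scaffolds and LIM proteins 7 of 31 rose, with Sorbs3 (0.58 ± 0.07) and Lpxn (0.89 ± 0.17), and 3 fell, with Ppfia1 (-0.28 ± 0.05). Actin and actomyosin proteins rose for 4 of 35, with Flnc (1.84 ± 0.36), Rhoc (0.54 ± 0.11) and Rhob (1.05 ± 0.26), and fell for 2, with Rdx (-0.31 ± 0.06). Kinases, adaptors and GTPase regulators rose for 3 of 36, with Nedd9 (0.47 ± 0.10), and fell for 6, with Sos1 (-0.29 ± 0.07), Yes1 (-0.36 ± 0.08) and Raph1 (-0.40 ± 0.10). In the list of integrin partners and regulators 7 of 24 rose, with Cd81 (0.44 ± 0.06), Sdc4 (0.50 ± 0.08) and Cd151 (0.24 ± 0.05), and 2 fell. Basp1 (1.53 ± 0.30) was also counted there as higher, and its tie to integrins was not tested. Adjusted p was 0.0259 or less for each named gene by edgeR.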

How the data were processed

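The labels put 16 libraries of WT mice aged 24 weeks in 4 groups of 4. RNA had been extracted with an RNeasy kit and libraries prepared with a SMARTER kit, according to the labels' protocols, and the submitters' processing notes name GRCm38 and mm10. The aligner, counter, annotation and strand setting were not given in the sources used here, so reads of overlapping genes cannot be told apart: 23 members overlap another gene, 21 of them on the opposite strand.

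The authors deposited whole-number counts per gene symbol for glomeruli, taken as raw read counts from their values, and per gene identifier for cortex, taken as estimated counts because 15 values above 0 had an FPKM of 0. The authors also deposited FPKM values for both tissues, which scale by transcript length and sequencing depth. Names came from GENCODE release M21 on GRCm38, which joined 18787 genes between the tables; unmatched glomerular symbols held 4.85% of the counts. Promoter windows came from RefSeq.

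Close pairs of glomerular libraries were summed. Genes were tested with edgeR 4.0.16 in R 4.3.3 (filterByExpr, TMM, robust glmQLFit and glmQLFTest, Benjamini-Hochberg over all genes tested), per tissue and, for the difference between tissues and for control glomeruli against control cortex, in 1 model of the 4 groups. The fits were also run on counts simulated from their own means and dispersions, which checks the code and not the results. Alternatives were DESeq2 1.42.0, DESeq2 size factors, library totals, no filter on low counts, limma 3.58.1 on log2(FPKM + 1) or log2(FPKM + 0.1) with a filter on a mean FPKM of 0.1 or without it, separate libraries, a replicate block and leaving out each sample. The members, lists and rules were chosen with earlier results of these data known. Every member is counted; values per sample are given for up to 24 called members of each tissue by smallest adjusted p and for the 6 uncalled members of highest mean FPKM in glomeruli, and up to 4 other adhesion genes per list are named by smallest adjusted p among those called. Some genes that this rule names are not reported here.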

Additional observations from a re-analysis of the deposited data

Results flagged for a closer look

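The log2 fold change of diabetic over control differed between glomeruli and cortex for 22 members by the interaction term of edgeR's model of all 4 groups (log2, glomeruli minus cortex). It was more positive in glomeruli for Itgb6 (6.53), Fermt1 (5.82), Itgb4 (4.87), Itga6 (2.34), Tln2 (2.30) and Pxn (0.33). It was more negative in glomeruli for the integrin subunits Itga11 (-8.72, and -12.66 without K-Con 4), Itga4 (-1.72), Itga5 (-1.59), Itgb3 (-1.37), Itgb5 (-1.21), Itga9 (-1.08), Itga1 (-0.96) and Itgb1 (-0.59), and for the intracellular proteins Lims2 (-1.64), Actn1 (-1.04), Zyx (-0.995), Parva (-0.80), Vcl (-0.78), Flna (-0.77), Ilk (-0.64) and Fermt2 (-0.63). Tln2 was called higher in diabetic glomeruli and lower in diabetic cortex, and Itgb5 and Itga11 were called lower in diabetic glomeruli and higher in diabetic cortex.

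Single cortex libraries lay far from the rest of their group for 5 members. They were Tns3 in K-STZ 4 at 84.1 CPM, Itga2 in K-Con 3 at 5.07 CPM, and, in K-Con 4, Itga11 at 0.0989 CPM, Itgav at 99.1 CPM and Tns2 at 171.8 CPM. Of 96 groups of 4 libraries examined, 5 were marked in this way, where chance marks about 1 in 20, and 3 of the 5 were in K-Con 4, the library that stands apart. The log2 fold change of Itga2 in cortex was 0.46 without K-Con 3 and -1.07 with it, and it was called in neither fit.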

How the results depend on the processing

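None of the called members changed sign under any alternative run. The call held under every alternative that gave a value for 12 of 27 called members in glomeruli, 10 of 18 in cortex and 19 of 22 for the difference between tissues; Itga11 in cortex had values under 14 of 16. In glomeruli the count of all genes called lower was 1661 with library totals, 1631 with limma on log2(FPKM + 1), 1664 with log2(FPKM + 0.1), 1352 without a filter on FPKM, and 1728 to 2516 without one sample (1728 without G-STZ 1+4 and 1778 without G-STZ 2). With G-STZ 2 as the lone diabetic sample, all genes called were 1356 higher and 937 lower, members lower 8, other adhesion genes lower 24, and for the difference all genes were 1996 higher and 1706 lower and other adhesion genes 13 higher. Members called higher were 6 to 10 without one sample, and members lower were 11 with limma on unfiltered FPKM. Other adhesion genes called higher were 36 with library totals, 31 and 35 with limma on log2(FPKM + 1) and log2(FPKM + 0.1), 31 with libraries kept separate and 12 to 24 without one sample, and those lower were 42 with limma on unfiltered FPKM. In cortex, all genes called lower were 787 with limma on unfiltered FPKM and 1090 to 2241 without one library. Members called lower there were 2 with library totals and with each limma fit, and 1 to 6 without one library. Other adhesion genes called higher were 19 to 37 without one library, and those lower were 3 with limma on unfiltered FPKM and 9 to 19 without one library. The cause of these shifts was not tested, beyond the fewer samples or genes of some fits.

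Members that were not called changed sign as follows (log2). In glomeruli Itga10 was 0.038 with library totals and with log2(FPKM + 0.1) and 0.014 with log2(FPKM + 1), filtered or not, Tns1 was 0.102 and 0.10 in the same fits, and Itga2b was -0.162 with G-STZ 2 as the lone diabetic sample. In cortex, leaving out one library at a time gave -0.063 to 0.127 for Itga6, -1.370 to 0.458 for Itga2, -0.025 to 0.033 for Itgb1, -0.027 to 0.106 for Ilk, -0.009 to 0.067 for Parva, -0.297 to 0.028 for Parvb and -0.060 to 0.233 for Tns2, and Ptk2 was 0.000 with library totals.

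The replicate numbers did not pair the libraries: deviations of same-numbered libraries correlated at -0.08 to 0.15 between G-STZ and G-Con and at -0.24 to 0.03 between K-STZ and K-Con, and only 2 and 1 of 4 numbers correlated best with their own. With a replicate block on separate libraries, all genes called lower in cortex were 986, members called lower there 1, and members called in glomeruli were 11 higher and 21 lower, against 12 higher and 20 lower with separate libraries alone.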

Other observations

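Of the 7 platelet markers listed, 3 were tested in glomeruli, and 1 was higher and 1 lower; their sum was 19.5 to 55.5 CPM in G-STZ and 3.52 to 5.74 CPM in G-Con. Ppbp, the precursor of a platelet chemokine, was at 47.5, 53.4 and 16.3 CPM in G-STZ, against 0.215, 0.423 and 0.242 CPM in G-Con. Gp1bb was at 0.490 to 0.739 CPM in G-STZ and 1.56 to 2.01 CPM in G-Con, and Pf4 at 0.820 to 2.45 CPM in G-STZ and 1.29 to 3.44 CPM in G-Con. Gp9, Gp1ba, Gp5 and Gp6 were at 0.185 CPM or less in every glomerular sample, and the platelet integrin chain Itga2b was not called there.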
